A study of Mus musculus with 24 samples.

Results

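The transcriptome response of A/A lung tumour cells to knockdown of Chchd10 was measured in 8 of the 24 RNA-seq libraries of the series, 4 of A/A cells that had received an siRNA against Chchd10 (A/A siChchd10) and 4 of A/A cells that had received a control siRNA (A/A siControl). All 39310 genes of the count table were considered, and the 18138 with enough counts were tested. The cells were mouse lung adenocarcinoma cells, sorted from tumours as GFP-positive and CD45-negative and grown as primary cultures. In A/A cells the translation initiation factor eIF2α carries alanine in place of the serine that stress kinases phosphorylate, and by titles, descriptions and column names all 8 libraries were of A/A cells. The genotype tag, which otherwise records only the knockdown, reads WT for the A/A and the S/S siControl samples alike and names the eIF2α allele for none. S/S cells, with the serine in place, had received the same siRNAs (S/S siControl and S/S siChchd10, 4 libraries each) and served only to show where the A/A response differed. The sources used here do not give the siRNA sequences, the time after transfection, the mouse strain or the number of mice or clones behind each culture. Loss of Chchd10 and any other effect of the same siRNA cannot be told apart. Where the A/A and S/S responses differed, the eIF2α allele and any other difference between the cultures cannot be told apart either.

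eIF2 carries the initiator tRNA to the ribosome. Phosphorylation of its α subunit slows general protein synthesis and favours translation of a few mRNAs, above all that of the transcription factor ATF4, which raises genes of amino acid supply and stress defence (the integrated stress response). CHCHD10 is a small protein of the mitochondrial intermembrane space that works with its relative CHCHD2 near the cristae. Damage to mitochondria can reach eIF2α through the protease OMA1, the messenger DELE1 and the kinase HRI, and A/A cells cannot use this route to phosphorylate eIF2α.

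Chchd10 (chromosome 10, 75933130 to 75937750, GRCm38.p6) measured 10.2, 9.53, 7.97 and 7.99 counts per 1e6 counted reads (CPM, after library scaling) in A/A siControl libraries 1 to 4 and 1.37, 1.75, 2.04 and 2.15 CPM in A/A siChchd10 libraries 1 to 4. All 4 knockdown libraries lay below all 4 controls, at 20.7% of the control level (log2 fold change -2.27, SE 0.121, adjusted p = 2.26e-13, edgeR's quasi-likelihood test with Benjamini-Hochberg adjustment, used for every adjusted p below). The S/S cells started higher, at 38.1 to 46.0 CPM under siControl and 5.34 to 6.82 CPM under siChchd10, so the A/A controls lay well below the S/S controls and above S/S siChchd10. Chchd2, which encodes the partner of CHCHD10, moved the other way. It measured 265, 247, 258 and 239 CPM under siControl and 321, 355, 353 and 354 CPM under siChchd10 and rose by 0.46 (SE 0.0567, adjusted p = 2.23e-07). The 180 bases before the annotated Chchd10 start (RefSeq, GRCm38.p6, chr10:75932950-75933129, plus strand) are shown because they hold, in capitals, a pair of matches to TGATGNAA, the element bound by C/EBP-ATF dimers such as those of ATF4.

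Chchd10: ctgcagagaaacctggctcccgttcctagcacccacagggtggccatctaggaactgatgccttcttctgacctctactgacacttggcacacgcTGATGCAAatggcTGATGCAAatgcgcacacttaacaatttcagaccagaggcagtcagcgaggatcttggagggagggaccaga

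Both strands of the 250 bases before each start were searched, and 2.69% of 12978 promoters of tested genes held this motif. A match describes letters and not a bound site, here and in the promoters below.

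Total counts, in units of 1e6, were 46.0 to 51.9 in A/A siControl, 47.5 to 75.4 in A/A siChchd10 and 42.9 to 53.03 in the S/S libraries, and between 24514 and 26452 genes had a count in each A/A library. Over the 1000 most variable genes, the first principal component of the 8 A/A libraries held 69.0% of the variance and separated siChchd10 (21.4 to 31.8) from siControl (-29.9 to -23.6). The second, with 13.7%, set A/A siControl 1 apart (26.7, the other 7 libraries at -14.2 to 2.28). A set of 7 RNAs chosen to be abundant throughout the S/S libraries and near 0 in A/A siChchd10 reached 6.48% of its S/S siControl sum in A/A siControl 1, and 0.990%, 0.0292% and 0.143% in A/A siControl 2 to 4. Each result was therefore also computed without A/A siControl 1, and counts of calls are followed by that value where it differs by more than 1 gene. Epithelial markers were not uniformly abundant. The keratin gene Krt8 stood at 1114 to 1270.3 CPM in A/A siControl and 1021 to 1130.0 CPM in A/A siChchd10. The E-cadherin gene Cdh1 stood at 951 to 1013 CPM in A/A siControl and 1104 to 1264 CPM in A/A siChchd10. The lung factor gene Nkx2-1 stood at 109.7 to 118 CPM in A/A siControl and 126 to 137 CPM in A/A siChchd10. Epcam was low (1.14 to 1.82 CPM in A/A siControl and 2.14 to 3.32 CPM in A/A siChchd10). Of 30 listed epithelial junction genes, 11 stayed under 1 CPM in all 8 libraries. The listed mesenchymal genes summed to 5217 to 5453 CPM in A/A siControl and 4211 to 4825 CPM in A/A siChchd10. The 18 leukocyte markers summed to 3.14 to 3.56 CPM in A/A siControl and 3.33 to 3.76 CPM in A/A siChchd10, with Tyrobp at 0 in all 8 libraries. The 12 fibroblast markers summed to 4.78 to 5.48 CPM in A/A siControl and 2.49 to 2.79 CPM in A/A siChchd10, nearly all of it Col1a1, with Col3a1 and Tcf21 at 0. The 12 endothelial markers summed to 26.3 to 28.8 CPM in A/A siControl and 21.2 to 23.03 CPM in A/A siChchd10, most of it Flt1 and Egfl7, with Emcn and Erg at 0. Fewer cells of one kind and less RNA per cell cannot be told apart in these bulk libraries.

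A large share of the measurable transcriptome moved when Chchd10 was knocked down in A/A cells, mostly by small amounts. In all, 9748 of 18138 genes passed the threshold (53.7%), of which 4806 rose (26.5%) and 4942 fell (27.2%), and the median size of a called change was 0.38 on the log2 scale. In 8464 of them (46.7% of the genes tested) the 4 siChchd10 libraries lay entirely above or entirely below the 4 siControl libraries. A change of at least 2-fold was seen in 1603 called genes (8.84%), 638 higher and 965 lower, and 1425 passed a test against a minimum fold of 1.5. Without A/A siControl 1, 9316 genes passed (51.4%), 4620 higher (25.5%) and 4696 lower (25.9%). Without A/A siControl 1 and 2, 8363 passed (46.1%), 4546 higher (25.1%) and 3817 lower (21.0%). In S/S cells the same siRNA gave 5076 calls (28.0%), 2720 higher (15.0%) and 2356 lower (13.0%), 598 of them at least 2-fold. The effect differed between A/A and S/S cells for 6461 genes (35.6%), with the A/A change the higher for 3026 (16.7%) and the lower for 3435 (18.9%). These shares are the background against which each gene group below is to be read. The groups were described by the number of their tested members past the threshold and by their median log2 fold change, beside a median of -0.01 over all genes tested.

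**Figure D1:**
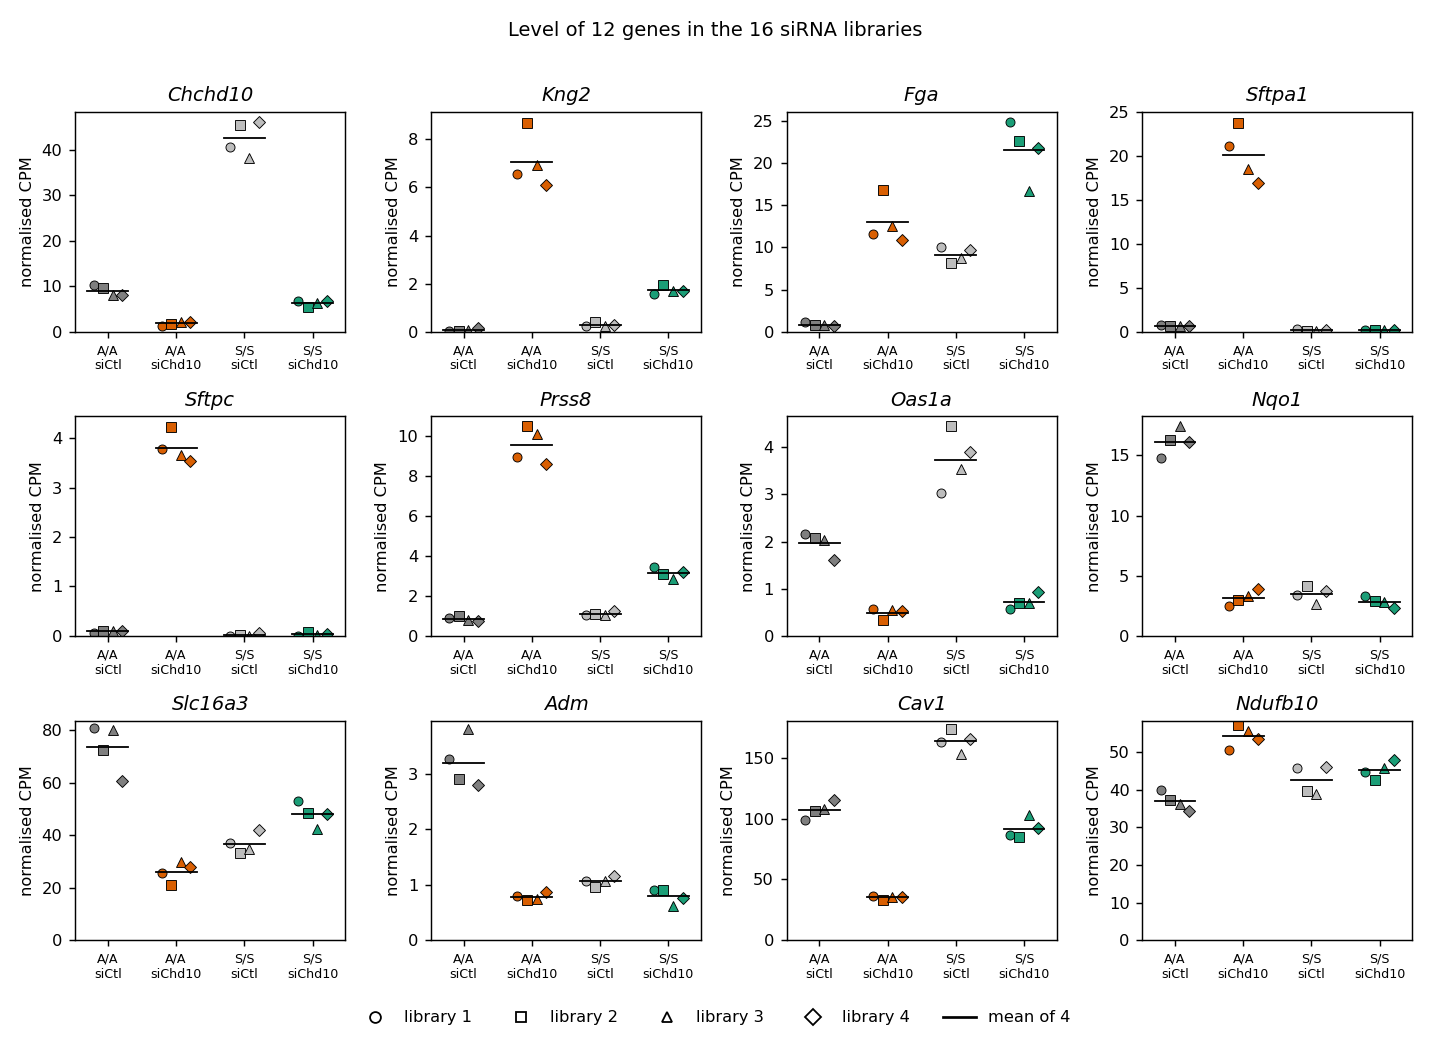
Expression levels (CPM, on the vertical axes) of 12 genes named in the text in the 16 libraries of the siRNA table. Each point is 1 library, siCtl stands for siControl and siChd10 for siChchd10, and the line is the mean of 4. Chchd10, Nqo1, Slc16a3, Adm and Cav1 were lower in all 4 A/A siChchd10 libraries than in all 4 A/A siControl libraries, and Kng2, Fga, Sftpa1, Sftpc and Prss8 were higher.

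The gene group with the highest median rise was that of genes that liver cells use to make plasma proteins. Of 21 such genes tested, 18 rose and 0 fell, with a median of 2.27, and the counts were the same without A/A siControl 1. The 21 came from 26 listed genes, of which 10 stayed under 1 CPM in every A/A library. A gene near 0 in A/A siControl can be counted only as a rise, which favours rises in this group. Summed over the list, expression was 642 to 722 CPM in A/A siControl and 2334 to 2654 CPM in A/A siChchd10. Kng2, which encodes a kininogen, the precursor of bradykinin, measured 0.0378, 0.0198, 0.0613 and 0.150 CPM under siControl and 6.56, 8.69, 6.92 and 6.11 CPM under siChchd10. No library of the groups overlapped, and it rose by 6.70 (SE 0.242, adjusted p = 2.05e-18), with the limit that its near copy Kng1 can share reads with it. Fga, which encodes the α chain of fibrinogen, measured 1.10, 0.810, 0.756 and 0.664 CPM under siControl and 11.5, 16.8, 12.6 and 10.9 CPM under siChchd10 and rose by 3.94 (SE 0.201, adjusted p = 7.20e-11). Apoh, a phospholipid-binding plasma protein gene, rose by 3.73 (from 0.0894 ± 0.0297 to 1.23 ± 0.236 CPM). Apoa4, a lipoprotein gene of gut and liver, had 0 counts in the 4 A/A siControl libraries and 253 counts in A/A siChchd10, and was at least 75.1-fold higher, taking a floor of 3 counts over the control group. Itih3, a hyaluronan-binding plasma protein gene, rose by 3.57 to a mean of 0.326 CPM, and its control counts all came from A/A siControl 1 (0.0946 CPM).

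The most abundant members, picked after their values were seen, moved by less. Alb, the albumin gene, measured 215, 232, 227 and 209 CPM under siControl and 712, 744, 772 and 694 CPM under siChchd10 and rose by 1.73. Ttr, which encodes the thyroxine carrier transthyretin, went from 218 ± 23.2 to 809 ± 46.2 CPM (mean ± SD, n = 4, as in all such pairs), a rise of 1.89. Apoa1, the main protein of high-density lipoprotein, went from 38.5 ± 2.95 to 259 ± 22.2 CPM (2.75), and Serpind1, a thrombin inhibitor gene, rose by 3.56 to a mean of 86.8 CPM. In each of these 4 genes, all A/A siChchd10 libraries lay above all A/A siControl libraries. Hnf4a, a transcription factor gene of liver and gut, was abundant before the knockdown (391 to 414 CPM) and rose by 0.17, while Cebpa, which encodes a factor shared by hepatocytes and alveolar type 2 cells, rose by 0.80 (from 64.3 ± 4.39 to 112 ± 7.96 CPM). In S/S cells 15 of the 21 rose, with a median of 0.97, and for 14 genes the A/A rise was the larger (for 1 the smaller). Fga, for example, rose by 1.237 in S/S cells (from 9.13 ± 0.880 to 21.5 ± 3.44 CPM, well above the A/A controls), a difference of 2.71 (SE 0.258, adjusted p = 7.02e-07).

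Promoters of both leading genes are shown because factors of the liver lineage are known to act close to such starts. The capitals mark matches to TTGCNNAA (C/EBP) and TGTTTNC (FOXA) in both, and to GTTAATNA (HNF1) in Fga, on either strand. The windows (RefSeq, GRCm38.p6) are chr16:23029102-23029281 on the minus strand and chr3:83025973-83026152 on the plus strand, in the direction of transcription.

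Kng2: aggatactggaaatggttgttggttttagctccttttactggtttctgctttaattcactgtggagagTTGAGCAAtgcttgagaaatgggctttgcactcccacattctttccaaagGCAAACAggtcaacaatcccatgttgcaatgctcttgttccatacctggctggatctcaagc
Fga: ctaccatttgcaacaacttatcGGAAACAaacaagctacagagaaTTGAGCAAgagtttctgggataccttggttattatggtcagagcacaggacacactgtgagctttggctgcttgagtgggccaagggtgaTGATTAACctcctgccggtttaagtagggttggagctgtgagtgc

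Within 250 bases, 9 of 18 liver-type genes with a promoter in the reference held the C/EBP motif, against 9.45% of all 12978 promoters. FOXA matches stood in 12 of 18, against 16.7%, and HNF1 matches in 3 of 18, against 2.07%. A promoter that held several motifs was counted for each.

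Surfactant genes and other genes of alveolar type 2 cells, the secretory cells of the alveolus, rose as well: 12 of 13 tested rose and 0 fell (median 1.89), and the same counts held without A/A siControl 1. The 13 came from 17 listed genes, of which 8 stayed under 1 CPM in every A/A library. Here too a gene near 0 in A/A siControl can be counted only as a rise. The list summed to 504 to 557 CPM in A/A siControl and 1393 to 1653 CPM in A/A siChchd10, most of it Sftpb. Sftpb, the gene of surfactant protein B, went from 290.2 ± 15.7 to 1177 ± 82.6 CPM (2.02), a value looked at because of its abundance. Sftpa1, which encodes the collectin surfactant protein A, measured 0.719, 0.632, 0.695 and 0.643 CPM under siControl and 21.2, 23.8, 18.6 and 17.0 CPM under siChchd10 and rose by 4.90 (SE 0.143, adjusted p = 2.63e-20). Sftpc, the gene most restricted to alveolar type 2 cells, measured 0.0567, 0.0988, 0.102 and 0.107 CPM under siControl and 3.78, 4.23, 3.66 and 3.55 CPM under siChchd10 and rose by 5.35 (SE 0.274, adjusted p = 2.66e-15). In both genes the groups were far apart, and the A/A siChchd10 level stayed low beside that of Sftpb. Sftpd rose by 3.98, the antigen presentation gene Cd74 by 3.25 and the lysozyme gene Lyz2 by 2.29, each to a mean under 1 CPM. Lyz2 and Cd74 are also expressed by leukocytes, whose markers are given above. Of the 13 genes tested, 6 rose and 1 fell in S/S cells (median 0.91). For 6 the A/A change was the higher (for 1 the lower). In S/S cells Sftpa1 and Sftpc stood at 0.0555 to 0.284 CPM under siControl and 0.156 to 0.209 CPM under siChchd10 and at 0 to 0.0640 CPM under siControl and 0 to 0.0798 CPM under siChchd10, did not pass (0.43, adjusted p = 0.482, and 0.73, adjusted p = 0.582), and differed from the A/A response by 4.46 and 4.63 (adjusted p = 1.65e-07 and 0.00433). The Sftpa1 promoter (chr14:41131608-41131787, plus strand) is shown for its match, in capitals, to CTCAAG, the core bound by the lung factor NKX2-1.

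Sftpa1: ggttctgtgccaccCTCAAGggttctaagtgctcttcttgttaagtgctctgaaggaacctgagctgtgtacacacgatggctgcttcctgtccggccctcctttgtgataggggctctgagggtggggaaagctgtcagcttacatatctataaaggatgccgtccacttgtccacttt

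The motif CTCAAG stood in 3 of 10 alveolar type 2 promoters, against 14.8% of all, the C/EBP motif in 1 and the FOXA motif in 2 of the 10. Among lung and foregut transcription factors 7 of 18 rose and 7 fell (median 0.02). Cebpa, the FOXA family gene Foxa3 (0.60) and Etv5 (0.56), a factor needed by alveolar type 2 cells, rose. The chromatin protein gene Hmga2 fell by 0.78 (from 198 ± 24.5 to 115 ± 1.07 CPM) and the osteoblast factor gene Runx2 by 0.66. Of 15 alveolar type 1 genes 2 rose and 4 fell (1 rose without A/A siControl 1). Cav1, which encodes the caveolar coat protein caveolin 1, measured 98.5, 106, 108 and 115 CPM under siControl and 36.6, 33.0, 35.8 and 35.3 CPM under siChchd10 and fell by 1.60 (SE 0.0571, adjusted p = 1.22e-17), with no overlap, whereas Ager, the type 1 cell receptor gene, rose by 0.63. Of 8 airway and basal cell genes, 4 rose and 0 fell (3 rose without A/A siControl 1), among them the mucin gene Muc5ac (2.30, to under 1 CPM). Muc5b, another mucin gene and the abundant member, went from 31.8 ± 2.27 to 53.5 ± 9.62 CPM (0.75), and was picked after its values were seen.

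Gut and gastric genes gave 14 rises and 2 falls of 22 (median 0.57), against 14 rises and 0 falls in S/S cells (median 0.82). For 7 of them the A/A change was the lower and for 5 the higher. Gkn2, which encodes a gastric surface protein, measured 0.303, 0.296, 0.184 and 0.171 CPM under siControl and 5.70, 6.81, 5.75 and 4.69 CPM under siChchd10 and rose by 4.56 (SE 0.217, adjusted p = 5.65e-16). The groups did not overlap, and in S/S cells the gene did not pass (0.33, adjusted p = 0.794; difference 4.23, adjusted p = 0.00104). The membrane mucin gene Muc4 rose by 4.04 (from 0.579 ± 0.150 to 9.66 ± 1.87 CPM) and another mucin gene, Muc20, by 3.72. Gpa33, an intestinal surface antigen gene, rose by 2.23 in A/A and 2.69 in S/S cells, and that difference did not pass (adjusted p = 0.0615). Apob, the scaffold protein of lipoproteins made in gut and liver, rose by 2.68, and by 3.08 without A/A siControl 1, where it stood at 50.3 CPM against 24.2, 21.1 and 21.4 CPM in the other controls. Sox9, a progenitor factor gene, fell by 0.54, and Pdx1, the factor of pancreas and duodenum, by 0.17. Membrane serine proteases and their inhibitors gave 7 rises and 1 fall of 9 (median 0.88), against 5 rises and 0 falls in S/S cells (median 1.14). For 3 of these the A/A change was the lower and for 2 the higher. Prss8, the gene of prostasin, measured 0.908, 0.988, 0.817 and 0.771 CPM under siControl and 8.95, 10.5, 10.1 and 8.59 CPM under siChchd10 and rose by 3.44 (SE 0.117, adjusted p = 4.91e-19), more than in S/S cells (difference 1.93, adjusted p = 2.79e-09), and the tryptase gene Prss22 fell by 0.91. Epithelial junction genes gave 10 rises and 2 falls of 27 (median 0.10), against 21 rises and 0 falls in S/S cells (median 0.49), and for 15 of them the A/A change was the lower (for 1 the higher). Epcam rose by 0.84, the plakophilin gene Pkp3 by 1.68 and the tight junction gene Marveld3 by 1.13, while the junction scaffold gene Tjp1 fell by 0.37.

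**Figure D2:**
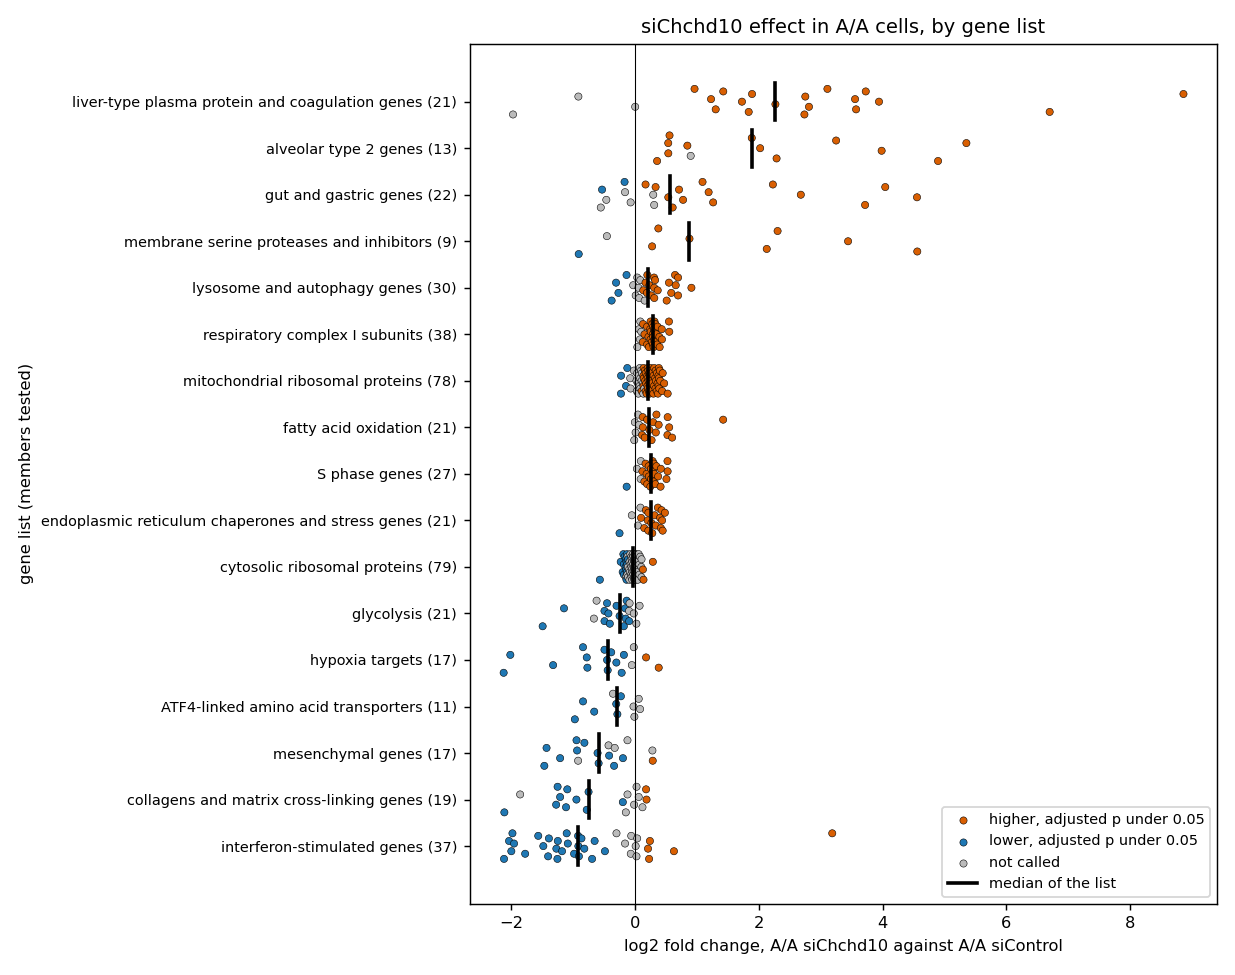
Log2 fold changes (horizontal axis, A/A siChchd10 against A/A siControl) of the tested members of 17 gene groups. Each point is 1 gene, orange where it rose, blue where it fell and grey where it did not pass, and the bar is the group's median. The fitted value of Apoa4, the liver-type gene farthest to the right, rests on 0 control counts. Liver-type genes (median 2.27) and alveolar type 2 genes (median 1.89) lie farthest to the right, and interferon-stimulated genes (median -0.92) farthest to the left.

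Further genes among the 10 largest rises of genes at a mean of 2 CPM or more in the A/A libraries belonged to none of these groups. Ptprn2, which encodes a protein of dense-core vesicles, measured 0.416, 0.711, 0.511 and 0.428 CPM under siControl and 8.68, 11.7, 9.73 and 7.55 CPM under siChchd10 and rose by 4.17 (SE 0.172, adjusted p = 3.16e-17). Cyp2c55, a cytochrome P450 gene of gut and lung, rose by 3.89 (from 0.691 ± 0.0824 to 10.3 ± 2.83 CPM) and Smbd1 by 4.10 (from 0.317 ± 0.0804 to 5.47 ± 0.506 CPM). Hdc, the gene of the enzyme that makes histamine, rose by 3.58 (SE 0.171, adjusted p = 8.02e-16) and did not pass in S/S cells (-0.81, adjusted p = 0.116). The largest falls at that level of expression, apart from Chchd10 and genes described below, included Ripor2, an inhibitor of the GTPase RhoA, with 14.3, 13.6, 15.3 and 14.8 CPM under siControl and 3.08, 2.44, 3.38 and 3.86 CPM under siChchd10 (-2.16, SE 0.0840, adjusted p = 1.61e-17). Rgs11, a regulator of G protein signalling, fell by 2.09, the Ras GTPase-activating gene Rasa4 by 1.998 (from 32.4 ± 1.13 to 8.06 ± 1.19 CPM), the rhomboid protease gene Rhbdl1 by 2.01 and the ubiquitin ligase gene Trim40 by 2.32. For each of these 5 falls the A/A and S/S libraries differed in response (differences of -2.18 to -1.67, adjusted p of at most 5.86e-05). Acan, the cartilage proteoglycan aggrecan, fell by 2.18. Basp1, a protein of growth cone membranes, fell by 2.29, with 26.3, 6.70, 5.005 and 5.70 CPM under siControl and 2.21, 2.29, 2.85 and 1.89 CPM under siChchd10. The value of A/A siControl 1 stood apart, and without that library Basp1 fell by 1.36.

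Most genes that interferon induces fell in A/A cells, and many fell further in S/S cells. Of 37 tested, 25 fell and 5 rose (median -0.92), with the same counts without A/A siControl 1. In S/S cells 34 fell and 1 rose (median -1.57), and for 20 genes the A/A change was the higher (for 2 the lower). Oas1a, which makes the activator of the RNA-cleaving enzyme RNase L, measured 2.16, 2.08, 2.02 and 1.61 CPM under siControl and 0.572, 0.330, 0.553 and 0.526 CPM under siChchd10 and fell by 1.98 (SE 0.190, adjusted p = 8.87e-10); its near copy Oas1g fell by 2.12, and the pair can share reads. Apol9a, of a family with near-identical copies, went from 3.21 ± 0.507 to 0.793 ± 0.255 CPM (-1.96), Oas2 fell by 2.002 and Ifitm3, a membrane protein gene that blocks virus entry, by 2.04. All of these stood at a few CPM or below in the A/A controls. Ifit1, a sensor of foreign RNA ends picked after its values were seen, was among the more abundant, with 17.7, 18.5, 17.4 and 16.02 CPM under siControl and 8.58, 7.78, 9.09 and 9.60 CPM under siChchd10 (-0.99, SE 0.0731, adjusted p = 5.27e-12), and it fell by 1.81 in S/S cells (difference 0.82, adjusted p = 5.26e-07). Against the others, Mx1, a GTPase gene that blocks viruses, rose by 3.19 from under 0.2 CPM (from 0.0905 ± 0.0261 to 0.844 ± 0.0571 CPM), as it did in S/S cells (3.27), and Lgals3bp, a secreted glycoprotein gene, rose by 0.63 (from 208 ± 8.30 to 321 ± 23.7 CPM). Because Lgals3bp dominates, the summed level of the list did not fall, at 661 to 693 CPM in A/A siControl and 701 to 751 CPM in A/A siChchd10. Interferon signalling has known roots in nucleic acid sensors: of 22 tested, 11 fell and 3 rose (median -0.13). The factor genes Irf7 (-1.12) and Stat2 (-1.11, from 33.8 ± 1.20 to 15.6 ± 0.448 CPM), the RNA sensor Dhx58 (-1.08) and the kinase gene Ikbke (-1.06) fell. Of 18 genes of MHC class I presentation 8 rose and 6 fell (8 higher and 4 lower without A/A siControl 1). Nlrc5, the transactivator of MHC class I genes, measured 3.76, 3.44, 4.11 and 3.68 CPM under siControl and 0.776, 0.989, 0.575 and 0.920 CPM under siChchd10 and fell by 2.18 (SE 0.151, adjusted p = 1.51e-12), while the class I gene H2-T23, of a family with similar copies, rose by 1.005 and the peptidase gene Erap1 by 0.49. The Ifit1 promoter (chr19:34640709-34640888, plus strand) is shown for its matches, in capitals, to GAAANNGAA, the core of the element through which interferon acts.

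Ifit1: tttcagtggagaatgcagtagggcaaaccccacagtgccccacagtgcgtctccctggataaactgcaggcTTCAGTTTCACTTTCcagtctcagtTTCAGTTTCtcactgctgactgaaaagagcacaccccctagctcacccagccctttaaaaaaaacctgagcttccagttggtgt

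The 3 matches overlap in part. In the 250 bases before the start, 17 of 29 interferon-stimulated genes with a promoter held the core, against 7.31% of all promoters.

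The ATF4 arm was measured to ask how it moves where eIF2α cannot be phosphorylated. Atf4 mRNA measured 185, 159.5, 162 and 151 CPM under siControl and 122, 125, 126 and 133 CPM under siChchd10 and fell by 0.38 (SE 0.0560, adjusted p = 2.51e-06), without overlap. Of 19 amino acid and folate enzymes linked to ATF4, 7 rose and 4 fell in A/A cells (median 0.06), whereas in S/S cells 2 rose and 15 fell (median -0.28); for 14 genes the A/A change was the higher (for 1 the lower). The folate enzyme genes Shmt1 (0.54) and Mthfd1 (0.52, from 196 ± 4.02 to 282 ± 9.26 CPM) rose, and the cysteine enzyme gene Cth (-0.51) and the proline enzyme gene Pycr1 (-0.49) fell. The motif TGATGNAA stood in 3 of 16 promoters of these enzymes. Of 11 amino acid transporters 6 fell and 0 rose. Slc7a11, the cystine importer, measured 107, 113, 116 and 118 CPM under siControl and 61.5, 59.8, 53.5 and 55.8 CPM under siChchd10 and fell by 0.98 (SE 0.0868, adjusted p = 9.73e-08), more than in S/S cells (difference -0.42, adjusted p = 0.0137). ATF4-linked stress genes gave 3 rises and 8 falls of 20 (3 higher and 7 lower without A/A siControl 1, and 3 higher and 4 lower without A/A siControl 1 and 2). The secreted factor genes Vegfa (-0.78, from 238 ± 5.39 to 138 ± 8.03 CPM) and Gdf15 (-0.52) fell, and the ER degradation gene Herpud1 (0.35) and the factor gene Atf5 (0.28) rose.

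Among eIF2 subunits, kinases and the mitochondrial relay 7 of 16 rose and 2 fell (7 higher and 1 lower without A/A siControl 1). Eif2s1, the gene of eIF2α itself, measured 200.3, 187, 197 and 198 CPM under siControl and 217, 228, 221 and 223 CPM under siChchd10 and rose by 0.18 (SE 0.0453, adjusted p = 0.00110), Eif2ak1, the gene of HRI, rose by 0.35 and Eif2b1, of the exchange factor of eIF2, by 0.38. Oma1 fell by 0.14, a call that ended without A/A siControl 1 (adjusted p = 0.131). Cytosolic tRNA synthetases, which load amino acids onto tRNAs, gave 11 rises and 3 falls of 20 (median 0.12), against 0 rises and 14 falls in S/S cells (median -0.18), and for 16 of them the A/A change was the higher (for 0 the lower). Without A/A siControl 1 and 2 the falls numbered 1 for the synthetases and 0 for the eIF2 group. Wars, the tryptophan enzyme, measured 67.5, 65.8, 66.9 and 66.8 CPM under siControl and 122, 134, 129 and 115 CPM under siChchd10 and rose by 0.91 (SE 0.0514, adjusted p = 3.37e-14), and Vars fell by 0.24. Endoplasmic reticulum chaperones and stress genes gave 17 rises and 1 fall of 21 (median 0.26; S/S 2 and 3, median 0.02), and for 16 the A/A change was the higher. Hspa5, the main chaperone of that compartment, measured 794, 747, 773 and 726 CPM under siControl and 1011, 1041, 1030.5 and 1002 CPM under siChchd10 and rose by 0.43 (SE 0.0508, adjusted p = 4.87e-08). Pdia3 (0.44), Calr (0.42) and Dnajb9 (0.44), which serve protein folding and disposal, rose by similar amounts, and the sensor gene Atf6 fell by 0.25.

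Most nuclear genes of the respiratory chain and of the mitochondrial ribosome rose by small amounts in A/A cells. Of 38 subunits of respiratory complex I, 33 rose and 0 fell (median 0.29), against 1 and 2 in S/S cells (median -0.05), and for 33 the A/A change was the higher. Ndufb10, an accessory subunit, measured 40.0, 37.2, 36.4 and 34.4 CPM under siControl and 50.5, 57.3, 55.6 and 53.5 CPM under siChchd10 and rose by 0.55 (SE 0.0577, adjusted p = 6.41e-09), and Ndufa5 rose by 0.55. Complexes II to V gave 30 rises and 0 falls of 36 (median 0.21; S/S 0 and 3), led by the ATP synthase gene Atp5j2 (0.43, from 138 ± 6.89 to 186 ± 13.5 CPM) and the complex II gene Sdhb (0.37). Mitochondrial ribosomal proteins gave 55 rises and 4 falls of 78 (median 0.21; S/S 1 and 10), with Mrpl20 at 0.53 and Mrps9 at -0.23. Mitochondrial chaperones and proteases gave 11 rises and 2 falls of 15. Grpel1, a cofactor of the matrix chaperone HSP70, rose by 0.47 and the prohibitin gene Phb by 0.37, while the intermembrane space protease gene Htra2 fell by 0.37. CHCHD and cristae proteins gave 15 rises and 2 falls of 24, Chchd10 not being a member of that count, with the cristae gene Micos13 at 0.49 and the copper chaperone gene Cox19 at 0.54. Fatty acid oxidation gave 16 rises and 0 falls of 21 (median 0.23; S/S 9 and 1), with Hadha (0.53) and Hadhb (0.52), which form the trifunctional protein, and Etfb (0.60), which carries the electrons on. The tricarboxylic acid cycle gave 7 rises and 2 falls of 16, the citrate synthase gene Cs (-0.24) and Idh2 (-0.46, from 159 ± 3.10 to 116 ± 5.44 CPM) being lower. Of 13 mRNAs of mitochondrial DNA, which have nuclear copies that can share reads, 5 rose and 1 fell. ND6 rose by 0.58 and ND5 by 0.54, and the fall of ATP6 (-0.30) ended without A/A siControl 1. Cytosolic ribosomal proteins gave 3 rises and 16 falls of 79 (median -0.03), with 9 falls without A/A siControl 1 and 3 without A/A siControl 1 and 2.

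Transcript length moved with these small changes. It was read from the longest annotated transcript of 11169 protein-coding genes at a mean above 2 CPM over the 16 siRNA libraries. The median A/A log2 fold change was 0.11 in the fifth with the shortest transcripts (up to 2046 bases), then 0.06, 0.01 and -0.04. It was -0.08 in the fifth with the longest (from 5384 bases), while in S/S cells the medians lay between -0.01 and 0.00. Relative to genes of like transcript length, a comparison added after the data were seen, the medians were 0.15 for complex I, 0.09 for complexes II to V, 0.11 for mitochondrial ribosomal proteins and 0.15 for fatty acid oxidation. They were -0.16 for cytosolic ribosomal proteins, 0.12 for mitochondrial chaperones and proteases and 0.15 for CHCHD and cristae proteins, against -0.03, 0.19 and 0.21 without that step, and 0.26 for endoplasmic reticulum chaperones, 2.26 for liver-type genes and -1.01 for interferon-stimulated genes.

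**Figure D3:**
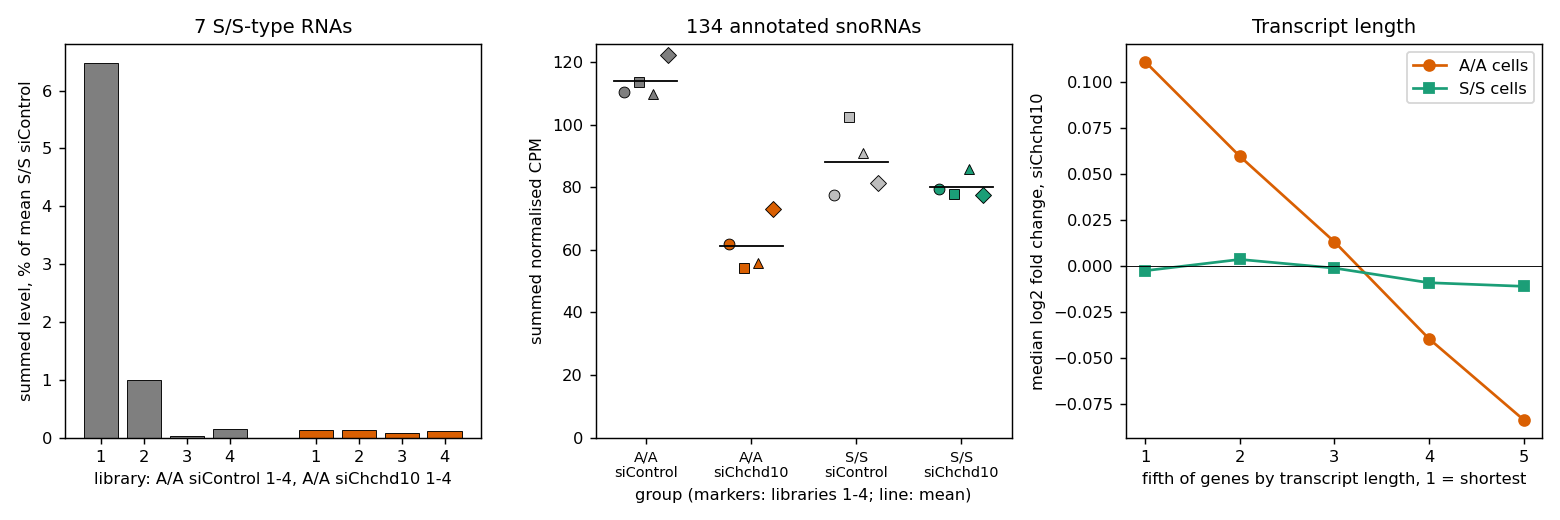
Left, RNA of 7 S/S-type genes in each A/A library, as a percent of its mean level in S/S siControl. These genes were chosen to be near 0 in A/A siChchd10, so the bars of that group are low by the choice. Middle, summed CPM of 134 small nucleolar RNAs in each of the 16 libraries. Right, median log2 fold change of protein-coding genes in 5 classes of transcript length from shortest to longest, in A/A and in S/S cells. A/A siControl 1 stands at 6.48%, the small nucleolar RNAs are lower in all 4 A/A siChchd10 libraries than in all 4 A/A siControl libraries, and the A/A medians go from 0.11 in the shortest to -0.08 in the longest class.

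Glycolytic genes and targets of hypoxia-inducible factor fell in A/A cells, where most did not fall in S/S cells. Of 21 glycolysis genes 14 fell and 0 rose (median -0.25; 0 higher and 13 lower without A/A siControl 1, 9 lower without A/A siControl 1 and 2), whereas in S/S cells 8 rose and 2 fell, and for 15 genes the A/A change was the lower (for 0 the higher). Slc16a3, which exports lactate, measured 80.7, 72.3, 80.2 and 60.8 CPM under siControl and 25.6, 20.9, 30.0 and 27.8 CPM under siChchd10 and fell by 1.496 (SE 0.119, adjusted p = 1.06e-07). The groups did not overlap, and in S/S cells the gene rose by 0.38 (difference -1.88, adjusted p = 1.27e-06). Pfkp, a phosphofructokinase gene, measured 68.2, 60.3, 63.1 and 52.4 CPM under siControl and 28.7, 24.02, 29.5 and 27.8 CPM under siChchd10 and fell by 1.15, and Aldoa, an aldolase gene, fell by 0.46 (from 1087 ± 65.5 to 793 ± 34.0 CPM). Pdk1, which restrains pyruvate entry into mitochondria, fell by 0.50. Of 17 hypoxia targets 13 fell and 2 rose (median -0.44), against 0 falls and 7 rises in S/S cells, and for 15 the A/A change was the lower (for 1 the higher). Adm, the gene of the vessel-dilating peptide adrenomedullin, measured 3.27, 2.91, 3.80 and 2.81 CPM under siControl and 0.797, 0.718, 0.745 and 0.867 CPM under siChchd10 and fell by 2.02 (SE 0.152, adjusted p = 7.55e-12), while in S/S cells it stood at 0.963 to 1.15 CPM under siControl and 0.624 to 0.897 CPM under siChchd10. Egln3, an oxygen-sensing hydroxylase gene, fell by 1.33 in A/A and rose by 0.43 in S/S cells (difference -1.76, adjusted p = 2.18e-07), and Vegfa, given above, belongs here too. Car12, a carbonic anhydrase gene, fell by 2.13, and by 1.28 without A/A siControl 1, which held 2.08 CPM against 0.613, 0.490 and 0.428 CPM in the other controls. Against the group, Ndrg1 rose by 0.38 and the collagen hydroxylase gene P4ha1 by 0.18. ACGTG, the core of the hypoxia response element, stood within 250 bases of the start in 11 of 16 hypoxia targets and 10 of 21 glycolysis genes, against 23.7% of all promoters.

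Matrix, mesenchymal and growth factor genes were lower in A/A siChchd10. Of 19 collagen and cross-linking genes 10 fell and 2 rose (median -0.75; S/S 6 and 7, median 0.02), and for 9 the A/A change was the lower (for 1 the higher). Plod2, a collagen-modifying enzyme gene, measured 59.5, 57.5, 55.9 and 55.4 CPM under siControl and 24.3, 23.4, 24.2 and 26.4 CPM under siChchd10 and fell by 1.21 (SE 0.0544, adjusted p = 1.78e-16), with no overlap. Col7a1, the anchoring fibril collagen, fell by 1.25, Col6a2 by 1.28 and Col1a1 by 1.12. Col1a1 is also the fibroblast marker that made up most of that list, whose part in these falls was not tested. Of 17 mesenchymal genes 11 fell and 1 rose (median -0.59; 1 higher and 9 lower without A/A siControl 1). In S/S cells 11 fell as well and 2 rose (median -0.31), and for 6 the A/A change was the lower (for 0 the higher). Tgfb2, a ligand of the TGF-β pathway, went from 13.6 ± 0.764 to 4.96 ± 0.848 CPM (-1.47), Tgfb1 fell by 0.95 and the factor gene Prrx1 by 1.21, while Sparc, a matrix glycoprotein gene, rose by 0.28 (from 1087 ± 26.9 to 1324 ± 60.4 CPM). The calls for Twist2 and Tgfbi ended without A/A siControl 1. Laminins and integrins gave 10 falls and 1 rise of 19, against 3 falls and 10 rises in S/S cells, and for 15 the A/A change was the lower (for 0 the higher). Lama5, a laminin α chain of basement membranes, measured 1170.5, 1359, 1327 and 1328 CPM under siControl and 869, 777, 807 and 776 CPM under siChchd10 and fell by 0.68 (SE 0.0700, adjusted p = 3.28e-08), and Itga5, the fibronectin receptor subunit, fell to 9.55 CPM from 22.6 CPM (means of 4). Itga7, a laminin receptor gene, fell by 1.76 in A/A and rose by 0.47 in S/S cells (difference -2.23, SE 0.103, adjusted p = 2.13e-14).

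Simple keratins and transitional alveolar genes gave 12 falls and 3 rises of 20 (median -0.26). The S/S counts were 4 falls and 8 rises (median 0.07), and for 16 genes the A/A change was the lower (for 3 the higher). Without A/A siControl 1, 11 were lower and 3 higher in A/A cells. Areg, which encodes the EGF receptor ligand amphiregulin, measured 65.1, 73.0, 72.5 and 73.9 CPM under siControl and 28.9, 32.8, 32.9 and 30.4 CPM under siChchd10 and fell by 1.19 (SE 0.0548, adjusted p = 4.95e-16). Slc4a11, a membrane transporter gene, fell by 0.96 where it rose by 1.15 in S/S cells (difference -2.11, adjusted p = 5.51e-11). Ccn2 (-0.86) and Ccn1 (-0.57), matrix-bound growth regulators known as targets of YAP, fell. In the EGF receptor group 12 of 23 fell and 2 rose, against 3 and 6 in S/S cells. The receptor genes Egfr (-0.58) and Erbb2 (-0.54, from 81.6 ± 2.43 to 56.1 ± 2.57 CPM), the ligand gene Btc (-0.73) and the ERK-responsive factor gene Etv4 (-0.48) fell, and Etv5 rose. In the Wnt group 8 of 22 fell and 2 rose (2 higher and 5 lower without A/A siControl 1 and 2). Lgr4, a receptor that strengthens Wnt signalling, fell by 0.80 (from 41.2 ± 1.23 to 23.6 ± 1.27 CPM) and the factor gene Tcf7 by 0.58, and Wnt7a rose by 1.26 at under 1 CPM. The fall of Wnt11 rests on 11 counts against 0, at least 4.12-fold lower by the floor of 3 counts over the group, and that of Lef1 on 20 counts against 3, a ratio of 0.134 (95% exact counting interval 0.0254 to 0.450) that ended without A/A siControl 1. Both RNAs were more abundant in S/S than in A/A cells, as was that of Esrp1, a splicing regulator gene with 11 counts, all in A/A siControl 1, against 0. Where the 6.48% share of S/S-type RNA could account for 50% or more of the level in A/A siControl 1, 131 falls (2.65%) were found, of which 68 were called lower without that library and 41 without A/A siControl 1 and 2.

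NRF2 and glutathione genes gave 10 falls and 4 rises of 23. Nqo1, the quinone reductase gene that is the common reporter of NRF2, measured 14.8, 16.3, 17.5 and 16.1 CPM under siControl and 2.51, 3.01, 3.32 and 3.89 CPM under siChchd10 and fell by 2.33 (SE 0.119, adjusted p = 1.46e-14), the largest fall among genes at a mean of 2 CPM or more in the A/A libraries by the naming rule, and in S/S cells it did not pass (-0.29, adjusted p = 0.128; difference -2.04, adjusted p = 3.70e-09), where it stood at 2.62 to 4.15 CPM under siControl and 2.32 to 3.35 CPM under siChchd10. The pentose phosphate gene G6pdx fell by 0.58, and Gstm1, a glutathione transferase gene with similar copies, rose by 0.73 (from 2012 ± 69.0 to 3345 ± 291 CPM). Lysosome and autophagy genes gave 19 rises and 4 falls of 30 (median 0.21; S/S 10 and 4, median 0.05), and for 18 the A/A change was the higher (for 3 the lower). Hexa, a glycolipid-degrading enzyme gene, measured 53.4, 54.4, 56.2 and 52.2 CPM under siControl and 93.6, 117, 98.0 and 97.4 CPM under siChchd10 and rose by 0.91 (SE 0.0560, adjusted p = 3.91e-13). The membrane protein gene Lamp1 (0.66, from 555 ± 4.10 to 874 ± 46.6 CPM), the cathepsin genes Ctsa (0.69) and Ctsd (0.64) and the proton pump gene Atp6v0d1 (0.69) rose, while Tfeb, the factor known to drive lysosomal genes, fell by 0.38. S phase genes gave 23 rises and 1 fall of 27 (median 0.26), against 0 and 5 in S/S cells (median 0.00). Mcm5, of the replicative helicase, rose by 0.41 (from 179.99 ± 7.54 to 239 ± 8.18 CPM), Tyms, of thymidylate synthesis, by 0.42 and cyclin E1 (Ccne1) by 0.52, where it fell by 0.52 in S/S cells (difference 1.04, adjusted p = 7.62e-09). G2 and mitosis genes did not share this: 1 of 24 rose and 8 fell (1 and 4 without A/A siControl 1 and 2), with the cyclin gene Ccnb2 at -0.33 and Top2a at -0.17. The p53 group of 22 genes holds p53 targets and also Trp53 and Cdkn2a. Of these 22, 12 fell and 5 rose, against 0 falls and 6 rises in S/S cells. The death receptor gene Fas rose by 1.22, Perp, of desmosomes, fell by 0.46 where it rose by 0.70 in S/S cells (difference -1.16, adjusted p = 5.55e-14), and Trp53 itself fell by 0.50.

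Inflammatory genes moved in both directions. NF-kB targets and chemokines gave 10 rises and 5 falls of 22 (median 0.23). Ccl20, a ligand for lymphocytes that carry CCR6, measured 13.4, 12.04, 11.8 and 10.6 CPM under siControl and 38.4, 44.8, 38.2 and 38.4 CPM under siChchd10 and rose by 1.74 (SE 0.109, adjusted p = 1.03e-09), Cxcl5 (1.20) and Cxcl3 (1.08), which draw neutrophils, rose, and the adhesion gene Vcam1 rose by 0.63 (from 424 ± 9.43 to 656 ± 34.3 CPM). Csf1, the growth factor of macrophages, measured 281, 319, 307 and 328 CPM under siControl and 182, 171, 188 and 185 CPM under siChchd10 and fell by 0.77 (SE 0.0477, adjusted p = 1.48e-13), and Ccl5, an interferon-linked chemokine gene, fell by 1.37. Complement genes gave 6 rises and 2 falls of 13. C3, the hub of the cascade, measured 13.9, 5.22, 4.72 and 4.28 CPM under siControl and 59.1, 57.8, 51.1 and 42.5 CPM under siChchd10 and rose by 2.88 (SE 0.311, adjusted p = 4.25e-06), and by 3.47 without A/A siControl 1, where it was highest among the controls. Cfi, the protease that inactivates C3b, rose by 1.39 (from 65.2 ± 2.12 to 171 ± 6.38 CPM), and the classical pathway gene C1ra fell by 0.65. Cholesterol synthesis gave 11 falls and 4 rises of 25 (4 higher and 9 lower without A/A siControl 1), and in S/S cells 13 rose and 2 fell, and for 17 the A/A change was the lower (for 0 the higher). Fatty acid synthesis gave 4 rises and 6 falls of 16 (3 falls without A/A siControl 1 and 2), Fasn rising by 0.31 and the desaturase gene Scd1 falling by 0.29. Circadian clock genes gave 12 falls and 6 rises of 19 (median -0.22). Per3 fell by 1.14 (from 20.9 ± 1.20 to 9.43 ± 1.19 CPM), and Rora (-0.93) and the repressor gene Nr1d2 (-0.76) fell, while Npas2, a partner of BMAL1, rose by 0.97.

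Small nucleolar RNAs, which guide the modification of ribosomal RNA and are mostly cut from introns of host genes, were lower in A/A siChchd10. Of 134 tested, a class picked after its values were seen, 83 fell and 0 rose (median -0.88), against 3 and 0 in S/S cells (median -0.12), and for 47 the A/A change was the lower. Without A/A siControl 1, 81 fell, and without A/A siControl 1 and 2, 71. Their summed level was 109.7 to 122 CPM in A/A siControl and 54.1 to 73.1 CPM in A/A siChchd10, without overlap, and 77.5 to 102 CPM over the S/S siControl libraries. Small nuclear RNAs gave 8 falls and 0 rises of 17 (6 falls without A/A siControl 1), and microRNA genes 13 falls and 0 rises of 43. A list of 10 RNAs without a polyA tail, read as a sign of how the RNA was selected, gave 5 rises and 3 falls, with the histone genes H2ac18 (1.47) and H2ac6 (1.301) higher and the RNase P RNA Rpph1 (-1.22) lower. Another of the falls was of Snhg1 (-0.48), a spliced host gene whose RNA is polyadenylated. Whether recovery of short RNAs differed between the groups was not tested.

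The A/A and S/S responses were also set side by side gene by gene; they share no library. Of the genes called in A/A cells 35.6%, and of those called in S/S cells 68.4%, were called in both (3471 genes), and 2805 of these moved in the same direction. In 1881 of the 2805 the A/A change was the larger in size. Among genes at a mean of 2 CPM or more in the A/A libraries whose difference passed with and without A/A siControl 1, the most positive differences were those of Pga5, a pepsinogen gene (5.59), Sftpa1, Hdc, Gkn2, Kng2 and Cltrn (3.54). Cltrn, which encodes collectrin, a partner of amino acid transporters, measured 36.8, 36.9, 35.0 and 32.1 CPM under siControl and 83.0, 77.6, 82.9 and 81.1 CPM under siChchd10 in A/A cells and 0 to 0.111 CPM under siControl and 0 to 0.0209 CPM under siChchd10 in S/S cells, and Pga5 stood at 0 to 0.0427 CPM under siControl and at 0 in every siChchd10 library of S/S cells, so both differences rest on a gene near 0 there. On the negative side stood Tmem54, Eps8l3, Basp1, Itga7, Rgs11 and Mroh3. Eps8l3, an actin regulator gene of brush borders, rose by 0.82 in A/A and 3.28 in S/S cells (difference -2.47, SE 0.269, adjusted p = 4.57e-08). Mroh3 fell by 1.55 in A/A and rose by 0.60 in S/S cells (difference -2.15). Tmem54 had a difference of -2.56 (adjusted p = 0.000356), while its own fall in A/A cells (-0.40) ended without A/A siControl 1.

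**Figure D4:**
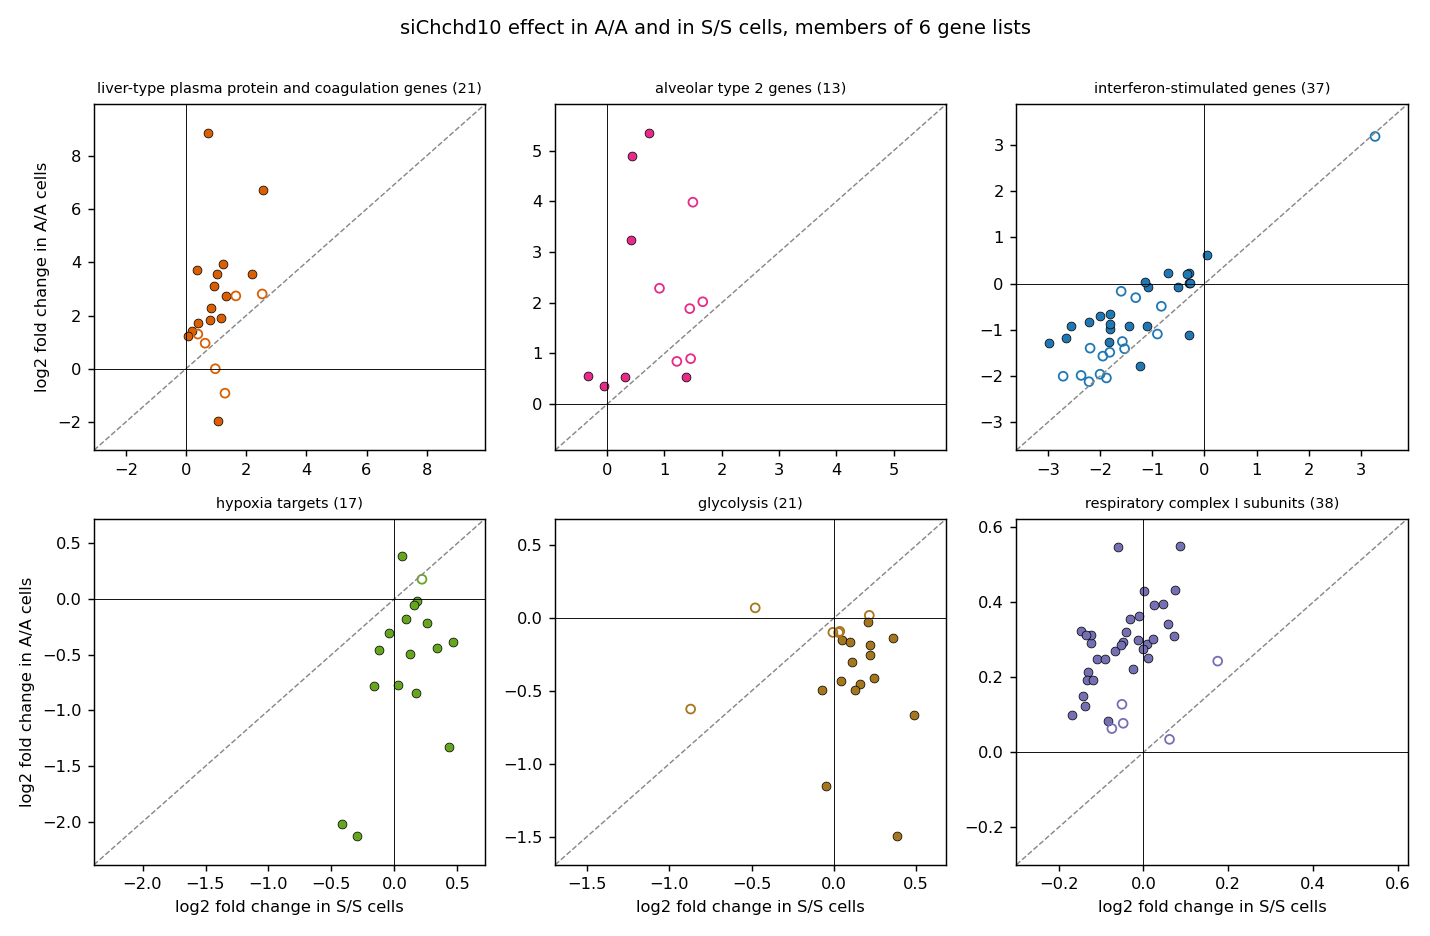
Log2 fold changes after siChchd10 in A/A cells (vertical axis) against S/S cells (horizontal axis) for the members of 6 gene groups. Each point is 1 gene, filled where the difference between the effects passed and open where it did not, and the dashed line marks equal effects. The highest point among liver-type genes is Apoa4, which had 0 counts in A/A siControl, so its fitted value is not a measured fold. Complex I subunits lie above the line (33 of 38 with a higher A/A change) and hypoxia targets below it (15 of 17 with a lower one).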

How the data were processed

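RNA was extracted with Trizol and sequenced on an Illumina NovaSeq after TruSeq Stranded Total RNA library preparation, per the labels' protocols, and the labels call the molecule polyA RNA. For the 16 siRNA libraries the authors deposited raw read counts per gene, in whole numbers. The submitters' processing notes name the build mm10 and DESeq2 1.24.0; aligner, counter, strand setting and annotation were not given in the sources used here, and overlapping genes and near copies are uncertain. Columns without a sample numbered 0, and 3763 of 39310 genes had no count. Total counts of 46.0 to 75.4 (in units of 1e6) per A/A library set the precision, and intervals cover counting error only.

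Genes were kept by filterByExpr and scaled by TMM, and siChchd10 was tested against siControl with edgeR 4.0.16 in R 4.3.3 (glmQLFit, robust, glmQLFTest) in 1 model of the 16 siRNA libraries with 1 term per group, which shares 1 estimate of the spread. The contrasts were A/A siChchd10 minus A/A siControl, the same in S/S cells, and their difference. Benjamini-Hochberg adjustment ran over all 18138 genes, with a threshold of 0.05 for a gene to be said to rise or fall. The test was tried on simulated data. Levels are CPM after TMM scaling, computed here. Gene groups are 48 lists, described by counts and medians. The comparison, lists and naming rule were chosen with earlier results of these data known. The rule named Chchd10, Chchd2, Atf4 and Eif2s1, the 10 largest rises and falls past the threshold with and without A/A siControl 1, at a mean log2 CPM of 1 or more and with groups that do not overlap, without predicted genes. It also named the 6 most positive and 6 most negative differences between A/A and S/S cells, and up to 2 members per list and direction (up to 5 where 8 or more passed). Trex1, Cdx1, Sox2, Twist1 and Rn7sl1 were listed and not matched. Some genes that the rule chose are not reported here. Nothing in the labels says that the 4 libraries of a group were grown separately, so p-values measure only the spread between these samples, and no libraries were duplicates. Alternatives were RLE and upper-quartile scaling, no filter, DESeq2 1.42.0, a replicate block, the A/A libraries alone, a minimum fold of 1.5, and leaving out each library or A/A siControl 1 and 2. Promoters are RefSeq sequences of GRCm38.p6, which matches mm10. Coordinates count from 1.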

Additional observations from a re-analysis of the deposited data

Results flagged for a closer look

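In 40 values, 1 library of a group of 4 stood apart from the other 3 by more than Dixon's 95% criterion, among 553 groups of 4 values checked, a test that chance alone passes in about 1 group of 20. The share of S/S-type RNA in A/A siControl 1, 6.48%, was among them. The other 39 were expression levels of genes that the naming rule chose. Library A/A siControl 1 lay above the rest of its group in Basp1 (26.3 CPM), Esrp1 (0.208 CPM), Apob (50.3 CPM), Itih3 (0.0946 CPM), Gsta3 (6.18 CPM), Car12 (2.08 CPM), Relb (14.2 CPM) and C3 (13.9 CPM). It lay below the rest in Areg (65.1 CPM), Sftpc (0.0567 CPM), Itgb8 (0.359 CPM), Lama5 (1170.5 CPM), Vcam1 (409.7 CPM) and C1ra (16.4 CPM). Library A/A siControl 2 lay below the rest of its group in Eif2b1 (42.7 CPM) and Rars (146 CPM). Library A/A siControl 3 lay above the rest of its group in Rasa4 (34.1 CPM) and Tapbpl (7.80 CPM). Library A/A siControl 4 lay above the rest of its group in Apool (28.1 CPM), Ager (5.66 CPM) and Kif20a (59.8 CPM). It lay below the rest in P4ha1 (243 CPM), Egln3 (41.8 CPM) and Ctsd (246 CPM). Library A/A siChchd10 1 lay above the rest of its group in Tfeb (17.4 CPM). It lay below the rest in Chchd2 (321 CPM), Eps8l3 (4.13 CPM), Nars (520.5 CPM) and Sec61b (42.0 CPM). Library A/A siChchd10 2 lay above the rest of its group in Cyp2c55 (14.5 CPM), Gdf15 (67.1 CPM), Dars (171 CPM), Ccl20 (44.8 CPM) and Lef1 (0.0582 CPM). Library A/A siChchd10 3 lay above the rest of its group in Perp (96.2 CPM). It lay below the rest in Cxcl5 (19.6 CPM). Library A/A siChchd10 4 lay above the rest of its group in Ccnb2 (80.9 CPM). It lay below the rest in Eif2ak1 (71.8 CPM) and Nr1d1 (28.0 CPM).

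The effect of siChchd10 differed between A/A and S/S cells by the test of the difference itself for 6461 genes. Among the genes named for the A/A comparison or for the difference, the A/A log2 fold change was the higher in Pga5 (5.59), Sftpa1 (4.46), Hdc (4.39), Gkn2 (4.23), Kng2 (4.15), Cltrn (3.54), Cyp2c55 (3.43), Fga (2.71), Muc4 (1.15), Chchd10 (0.49), Chchd2 (0.45) and Eif2s1 (0.29). It was the lower in Tmem54 (-2.56), Eps8l3 (-2.47), Basp1 (-2.40), Itga7 (-2.23), Rgs11 (-2.18), Mroh3 (-2.15), Nqo1 (-2.04), Rhbdl1 (-1.97), Ripor2 (-1.95), Trim40 (-1.93), Acan (-1.71), Rasa4 (-1.67) and Nlrc5 (-0.93). For Chchd10 the positive difference goes with a proportional fall that was smaller in A/A cells, where the control level was 8.93 CPM against 42.6 CPM in S/S cells. Pga5 and Cltrn were at or near 0 in the S/S libraries, so the size of their differences depends on how the fit treats near-empty counts.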

How the results depend on the processing

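With a minimum fold of 1.5, 1425 genes passed in A/A cells and 600 differed between A/A and S/S cells. RLE scaling (9775), upper-quartile scaling (9796), DESeq2 (9794), no filter on low counts (9713) and the 8 A/A libraries alone (10033) each gave a count within 1.5 times the 9748 of the fit as described, and 8901 to 9395 genes passed when 1 A/A library was left out. Over all 16 libraries the counts ran from 8901 to 9882 for the A/A effect and from 5718 to 6810 for the difference. Without A/A siControl 1, 9 cytosolic ribosomal protein genes were lower, against 16. Without A/A siControl 1 and 2 the lower members numbered 3 for cytosolic ribosomal proteins, 4 for ATF4-linked stress genes, 9 for glycolysis, 4 for G2 and mitosis genes, 5 for the Wnt group, 3 for fatty acid synthesis and 1 for cytosolic tRNA synthetases (against 6 and 3), and the log2 fold change of Lef1 turned to 0.32. For these the cause was not tested beyond the smaller number of libraries. Of 273 named genes, 24 lost their call without at least 1 single A/A library. The replicate numbers did not pair the libraries: same-numbered siControl and siChchd10 libraries had correlations of deviations of -0.33, -0.15, 0.30 and 0.22, and with the replicate block 9431 genes passed in A/A cells (9984 in the 8 A/A libraries alone) and 6100 for the difference, and among gene groups with 8 or more members called in a direction no count left the range of 1.5 times. Of the smaller counts, with the block the falls went from 2 to 0 in the eIF2 group and from 2 to 1 among epithelial junction genes. Some other counts of 1 or 2 falls were lower by 1 or 2 genes without A/A siControl 1 and 2. With 46.0 to 75.4 counts, in units of 1e6, per A/A library, 1 CPM stands for at least 46 counts, and levels under 0.1 CPM rest on a few counts.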

Other observations

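Gene families outside the groups above were looked through after the values were seen, and are given as counts beside the 26.5% of genes that rose and the 27.2% that fell in A/A cells. Families of enzymes that modify drugs, steroids and bile acids came first. Of 11 UDP-glucuronosyltransferases 10 rose and 0 fell (median 1.296, and 5 higher and 1 lower in S/S cells, median 0.46), with Ugt2b5 from 15.4 ± 0.947 to 37.7 ± 1.31 CPM and Ugt1a6a from 11.5 ± 0.610 to 35.8 ± 3.56 CPM. Of 7 glutathione transferases of the mu class 6 rose and 1 fell (median 0.85, and 0 higher and 1 lower in S/S cells, median 0.13), and Gstm3 went from 10.6 ± 0.862 to 26.4 ± 3.30 CPM. All 5 carboxylesterases tested rose (median 1.75; in S/S cells they were at 0 to 0.0585 CPM, too low to compare), with Ces1c from 1.51 ± 0.146 to 7.25 ± 0.895 CPM. Cytochrome P450 genes gave 16 rises and 6 falls of 31 (median 0.23, and 11 higher and 3 lower in S/S cells, median 0.35). Cyp2c68 went from 6.91 ± 0.376 to 55.1 ± 5.61 CPM and Cyp4f14 from 5.61 ± 0.638 to 36.3 ± 3.45 CPM. Cyp2s1 fell from 214 ± 17.9 to 118 ± 10.7 CPM, where in S/S cells it rose from 49.1 ± 3.40 to 76.5 ± 12.1 CPM (log2 fold change 0.64). Cyp1b1 fell from 92.6 ± 2.08 to 44.6 ± 4.07 CPM, while Cyp1a1 did not pass (from 49.2 ± 3.19 to 47.2 ± 4.15 CPM, log2 fold change -0.06). Of 14 aldo-keto reductases 9 rose and 3 fell (median 0.38, and 4 higher and 2 lower in S/S cells, median 0.11), Akr1d1, a bile acid enzyme gene, going from 3.77 ± 0.365 to 11.6 ± 0.996 CPM. These families hold similar copies whose counts can share reads.

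Clustered protocadherins of the beta class, adhesion genes with similar copies, gave 8 rises and 0 falls of 11 (median 0.67, and 0 higher and 5 lower in S/S cells, median -0.57), and for 7 the difference between A/A and S/S cells passed. Pcdhb19 went from 4.94 ± 0.529 to 7.86 ± 0.951 CPM in A/A cells. Kruppel-like factors gave 11 falls and 1 rise of 15 (median -0.43, and 1 higher and 5 lower in S/S cells, median -0.10), with Klf6 from 122 ± 2.32 to 83.3 ± 3.49 CPM and Klf5, a factor of epithelial progenitors, from 70.3 ± 6.13 to 49.9 ± 1.01 CPM. Subunits of the COP9 signalosome gave 8 rises and 0 falls of 9, proteasome subunits 22 rises and 1 fall of 37, and intraflagellar transport genes, which build cilia, 9 rises and 0 falls of 14. Relative to genes of like transcript length the medians of these last groups were 0.16, 0.08 and 0.17, against 0.24, 0.18 and 0.18 without that step. Coenzyme Q synthesis gave 8 rises and 1 fall of 11.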
